A study of Mus musculus with 70 samples.

Results

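All 70 dorsal hippocampus libraries of the series were compared by the day on which the tissue was collected, 35 libraries from harvest cohort 1 (replicates 0 to 4 of each group) against 35 from harvest cohort 2 (replicates 5 to 9). The cohort was taken from the harvest cohort label of each sample, so every library of the series was a member and the choice used no measured value. Every difference below is cohort 2 minus cohort 1 on the log2(FPKM + 0.1) scale, with the 7 groups as a covariate. FPKM are fragment numbers scaled to transcript length and to the total each library yielded. The 0.1 added before taking logs makes differences of genes near 0 FPKM smaller than their true folds.

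RNA came from the dorsal hippocampus of adult male C57BL/6J mice, 12 weeks old and singly housed, 1 mouse per library. Each group held 10 libraries, 5 from each cohort, and is named by its days of wheel running, of sedentary delay and of renewed running. The sedentary (0-0-0) mice never ran, the 14-0-0 mice ran for 14 days, and the 14-7-0 and 14-14-0 mice then rested for 7 and 14 days. The 14-7-2 mice ran for 14 days, rested for 7 days and ran again for 2 days, and the 0-0-2 mice ran for 2 days only. These 6 groups had 3 min of object location training, too short to leave a lasting memory by itself, 1 h before collection. The home cage mice neither ran nor trained. Collection took place on 2 days, 24 h apart, within a window of 4 h on each, with the groups balanced over the days. Everything that differed between the days, from handling to any step done cohort by cohort, carries the same label as the day, and these cannot be told apart.

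Several programs make hippocampal RNA sensitive to the moment of collection. Activity induces immediate early transcription factors within minutes, the circadian clock moves its repressors and its activators in opposite phases over the day, and handling, warmth or hypoxia induce stress genes. Dissection adds a further source, because a piece of tissue may carry more or less choroid plexus, blood or neighbouring brain regions. Library preparation adds another, because steps such as amplification recover G- and C-rich fragments to different degrees. In bulk tissue, fewer cells of a type and less RNA per cell cannot be told apart.

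Both cohorts had the transcripts that define the hippocampus. Neurod6, a transcription factor of pyramidal neurons, had a median of 150 FPKM in cohort 1 and 143 FPKM in cohort 2. Sedentary replicate 6 (cohort 2) stood apart, with 2.45 FPKM of Neurod6 against at least 78.4 FPKM in every other library, and with 2.91 FPKM of Prox1, the regulator of dentate granule cells, against at least 9.70 FPKM. These values go against its tissue label, although Wfs1, a marker of CA1, was at 54.9 FPKM in it. In 14-7-0 replicate 4 (cohort 1) the estimated depth was 0.0360 of that of sedentary replicate 0, and 10279 genes were listed at 0 FPKM. The estimated relative depth averaged 0.735 ± 0.196 in cohort 1 and 0.840 ± 0.188 in cohort 2 (SD, n = 35 each; permutation test within groups, two-sided p = 0.0263, adjusted p = 0.0899 over 5 library measures). The number of genes listed at 0 averaged 6815 ± 642 and 6628 ± 155 (permutation p = 0.0359, adjusted p = 0.0899), and the sum of FPKM averaged 421144 and 419682 (permutation p = 0.706). The part of depth in the gene results was not tested beyond the fit with depth as a covariate given below.

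The difference between the harvest days was small and sparse. Of the 12994 genes that averaged 1 FPKM or more, 76 (0.585%) passed an adjusted p under 0.05 in limma's moderated test, 17 (0.131%) higher in cohort 2 and 59 (0.454%) higher in cohort 1. At an unadjusted p under 0.05 the numbers were 1542 (11.9%), 465 (3.58%) and 1077 (8.29%). Among the 76 called genes the size of the difference had a median of 0.16 (log2), a change of 11.4%, and ran from 0.06 to 0.65. Over all genes the median difference was -0.0151 with quartiles at -0.0545 and 0.0295, and 84.1% of genes lay within 0.1 of 0.

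No gene separated the 2 cohorts completely, since the ranges of FPKM over 35 libraries overlapped for every gene tested. The cohort accounted for a median of 0.971% of a gene's variance over the libraries. Without any difference 1 degree of freedom takes 1.45% on average. Such shares are skewed, with a median below their mean, so this mean is not directly comparable with the median above. The 2 values therefore do not show a cohort share below that of no difference. For the called genes, which were chosen by these same values, the median was 19.4%, and the highest value was 33.5%, for Irf2bp2. In the same fit the 7 groups gave 31 called genes (limma F test, 0.239%; 1025, or 7.89%, unadjusted), and no gene was called for both cohort and group.

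The balance between the directions depended on scaling. In the FPKM as deposited 22.4% of the called genes were higher in cohort 2, against 40% of 35 called genes after scaling by median ratios and 42.0% of 69 after quantile normalization. All 76 genes kept their sign under both, with 35 and 47 of them still called. Without sedentary replicate 6 there were 115 called genes, without 14-7-0 replicate 4 there were 154, and without both there were 165 (51 higher in cohort 2 and 114 higher in cohort 1), which included 75 of the 76. The exception was Uba2. Leaving out the home cage group left 1 called gene, and leaving out the 14-0-0 group left 2. With the replicate number as a block, limma called 0 genes (563 at an unadjusted p under 0.05, smallest adjusted p = 0.401). The 76 calls above and every adjusted p of a gene below therefore hold only where libraries of the same number are independent.

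**Figure D1:**
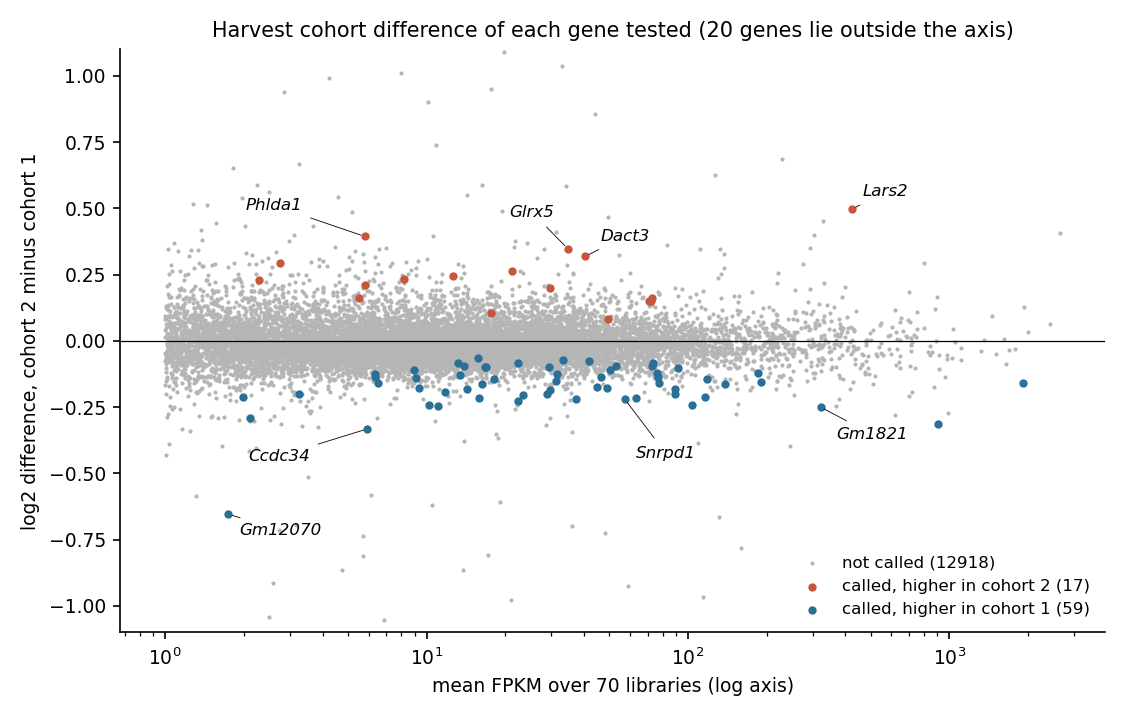
Difference between harvest cohorts (log2, cohort 2 minus cohort 1, vertical axis) of each of the 12994 genes tested against its mean FPKM over 70 libraries (horizontal log axis), with the 17 genes called higher in cohort 2 and the 59 called higher in cohort 1 in colour. The called genes lie within 0.65 of 0 and at every level of expression, and 20 genes, none of them called, fall outside the axis.

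Irf2bp2, a corepressor that binds interferon regulatory factor 2, had the smallest p. Its FPKM ran from 5.76 to 9.69 with a median of 7.34 in cohort 1, and from 6.76 to 10.3 with a median of 8.82 in cohort 2. The ranges overlapped widely, but 33 of 35 cohort 2 libraries lay above the cohort 1 median. The difference was 0.23 ± 0.04 (log2, SE; limma adjusted p = 0.000478), and it was positive in all 7 groups.

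Both Dact3, an antagonist of Wnt signalling that acts on dishevelled proteins, and Frat1, which promotes Wnt signalling by binding GSK3, were higher in cohort 2. Dact3 ran from 24.8 to 59.9 FPKM (median 35.2) in cohort 1 and from 36.5 to 58.8 FPKM (median 44.2) in cohort 2. Every cohort 2 library was above the cohort 1 median, while the highest single value belonged to cohort 1. Its difference was 0.32 ± 0.06 (limma adjusted p = 0.00663), and that of Frat1 was 0.21 ± 0.05 (adjusted p = 0.0269). Frat2, the related gene, differed by 0.22 ± 0.06 and did not pass (adjusted p = 0.0803).

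Some genes higher in cohort 2 encode proteins of mitochondria or peroxisomes, a grouping made after the values were seen and without a test, and other mitochondrial genes were called in the opposite direction. Lars2, which encodes the leucyl-tRNA synthetase of mitochondria, had 151 to 675 FPKM (median 338) in cohort 1 and 285 to 872 FPKM (median 457) in cohort 2. It had the largest difference of the genes higher in cohort 2, 0.50 ± 0.10 (limma adjusted p = 0.00663), with 33 of 35 cohort 2 libraries above the cohort 1 median. Glrx5, a mitochondrial glutaredoxin of iron-sulfur cluster assembly, had medians of 27.4 FPKM (18.02 to 64.1) and 37.7 FPKM (25.5 to 61.4), a difference of 0.35 ± 0.09 (adjusted p = 0.0407). Here too the highest library was in cohort 1. Tysnd1, a peroxisomal protease, went from a median of 11.1 FPKM to 13.2 FPKM (0.24 ± 0.06, adjusted p = 0.0291). Dnajc30, a mitochondrial J-domain protein, differed by 0.20 ± 0.05 (adjusted p = 0.0419).

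Phlda1, a pleckstrin-homology-like protein induced by growth signals, had the second largest rise, from a median of 4.77 FPKM (2.28 to 8.93) to 6.02 FPKM (4.09 to 12.4), or 0.39 ± 0.10 (limma adjusted p = 0.0398). Dexi had 17.8 FPKM (11.2 to 34.5) in cohort 1 and 23.1 FPKM (18.2 to 31.7) in cohort 2, and all 35 cohort 2 libraries lay above the cohort 1 median (0.26 ± 0.07, adjusted p = 0.0464). Lhx6, the LIM homeobox factor of interneurons that arise in the medial ganglionic eminence, went from 5.19 FPKM to 5.74 FPKM (0.16 ± 0.04, adjusted p = 0.0347). Ina, which encodes the neurofilament protein alpha-internexin, differed by 0.15 (adjusted p = 0.0412). Brd2, a reader of acetylated histones, had the smallest difference of those higher in cohort 2, 0.08 (adjusted p = 0.0412). The remaining called genes of this direction were Fam110a, Dnaaf2 (a factor of dynein arm assembly), Fam53c, Ubqln2 (a shuttle of ubiquitinated proteins) and Eif3f (a translation initiation subunit), at 0.11 to 0.30.

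**Figure D2:**
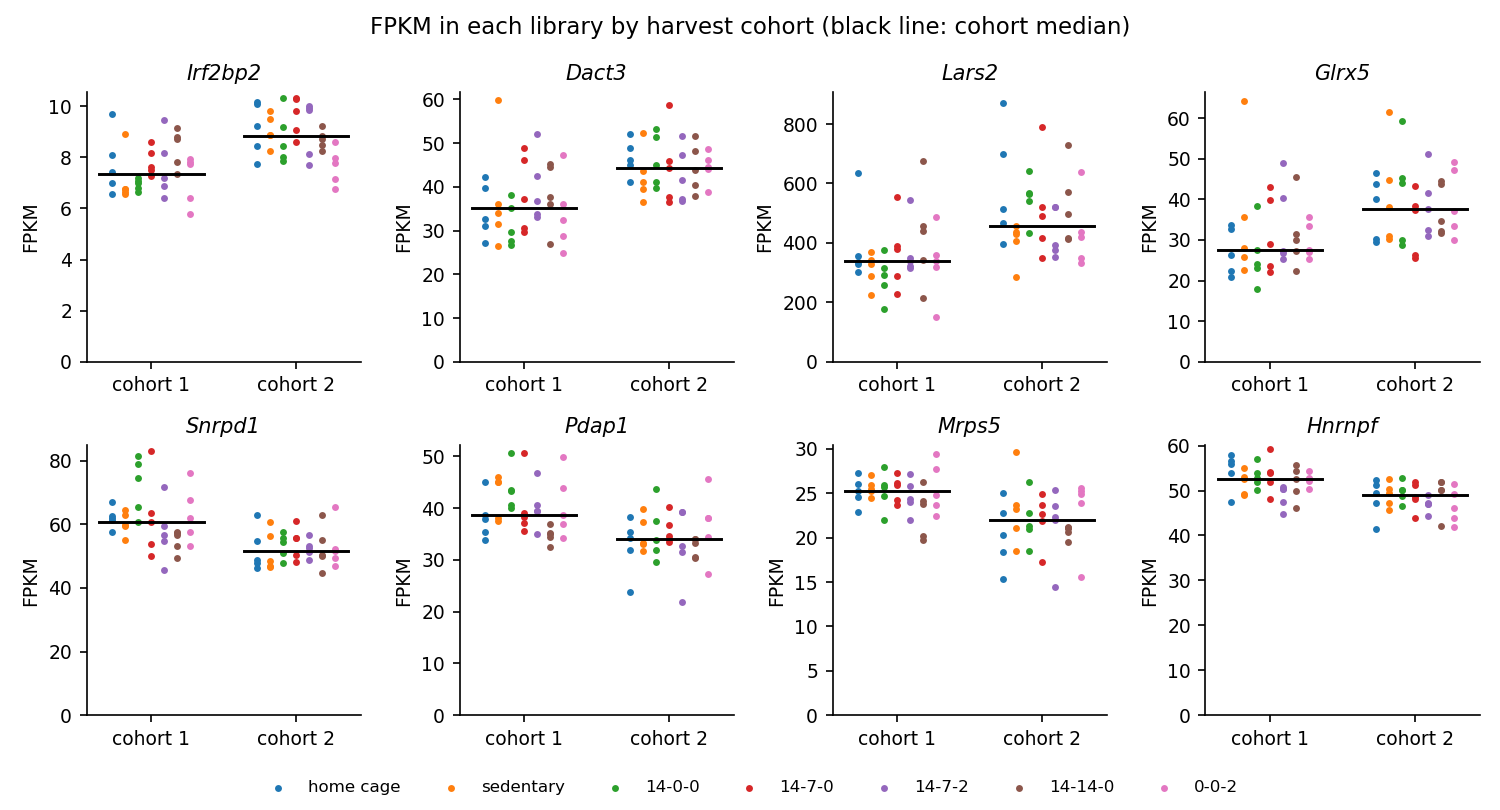
FPKM (linear axis from 0) of 8 of the named genes in every library, cohort 1 on the left and cohort 2 on the right of each panel, coloured by group, with a black line at the cohort median. For Irf2bp2, Dact3, Lars2 and Glrx5 the points of cohort 2 sit higher, for Snrpd1, Pdap1, Mrps5 and Hnrnpf they sit lower, and in every panel the cohorts overlap.

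Several genes higher in cohort 1 encode proteins of RNA processing, a grouping made after the values were seen and without a test. Snrpd1, a Sm protein of the core of spliceosomal snRNPs, had the smallest p in this direction. It ran from 45.7 to 82.9 FPKM (median 60.7) in cohort 1 and from 44.6 to 65.5 FPKM (median 51.5) in cohort 2. In cohort 2, 31 of 35 libraries were below the cohort 1 median, and the difference was -0.22 ± 0.04 (limma adjusted p = 0.00589).

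Of 19 measured proteins of the spliceosomal snRNPs, a list put together after these values were seen, 3 were called lower in cohort 2, where 0.454% of all genes were, and none higher. The list median was -0.0676 against -0.0151 over all genes, and -0.0087 with the GC trend of each library removed. Beside Snrpd1 these were Snrnp35 of the minor spliceosome (median 10.8 FPKM in cohort 1 and 9.15 FPKM in cohort 2, -0.24 ± 0.05, limma adjusted p = 0.0133) and Snrnp27 of the tri-snRNP (47.4 and 41.4 FPKM, -0.17 ± 0.04, adjusted p = 0.0392). Of 20 hnRNP genes, likewise listed afterwards, 2 were called lower in cohort 2, where 0.454% of all genes were, and none higher. These were Hnrnpf and Hnrnph2 (-0.16, limma adjusted p = 0.0269), which bind G-rich RNA. At an unadjusted p under 0.05, 7 of the 20 (35%) were lower and 3 (15%) higher, against 8.29% and 3.58% of all genes. The list median was -0.05, and -0.0025 with the GC trend removed. Hnrnpf ran from 44.8 to 59.2 FPKM (median 52.6) in cohort 1 and from 41.5 to 52.7 FPKM (median 48.9) in cohort 2. Its difference was only -0.11 ± 0.02 (adjusted p = 0.0114), yet 34 of 35 cohort 2 libraries were below the cohort 1 median. Hnrnpa2b1 at -0.16 (adjusted p = 0.0697) and Hnrnpa0 at 0.20 (adjusted p = 0.0693) did not pass.

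Other called genes of this kind were Nono, a paraspeckle protein (-0.10), Taf15, an RNA-binding protein of the FET family (-0.20), Bud31, a spliceosomal protein (-0.19), Ccdc55, a splicing regulator of nuclear speckles (-0.16), Rsrc1, an arginine- and serine-rich splicing protein (-0.08), Mettl14, a subunit of the enzyme that methylates adenosines in mRNA (-0.11), and Upf3b of nonsense-mediated decay (-0.18). For Taf15 all 35 libraries of cohort 2 lay below the cohort 1 median of 32.4 FPKM, although the lowest single value, 17.7 FPKM, was in cohort 1.

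Further genes higher in cohort 1 are grouped by function for description only, after their values were seen. Mrps5 and Mrpl41 encode proteins of the mitochondrial ribosome. Mrps5 had 19.7 to 29.4 FPKM (median 25.2) in cohort 1 and 14.47 to 29.7 FPKM (median 21.96) in cohort 2, a difference of -0.20 ± 0.04 (limma adjusted p = 0.0165). Mrpl41 had medians of 17.0 and 15.1 FPKM (-0.16 ± 0.03, adjusted p = 0.00908). Both were lower in cohort 2 in all 7 groups. Ufm1, a ubiquitin-like modifier, Uba2, a subunit of the SUMO-activating enzyme, Rnf7, a RING subunit of cullin ligases, Anapc10, a subunit of the anaphase-promoting complex, and Faf2, a factor of degradation at the endoplasmic reticulum, were called at -0.20 to -0.06.

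The remaining genes higher in cohort 1 were diverse. Pdap1, which encodes a protein associated with platelet-derived growth factor A, had 32.5 to 50.7 FPKM (median 38.7) in cohort 1 and 21.8 to 45.6 FPKM (median 34.0) in cohort 2 (-0.22 ± 0.05, limma adjusted p = 0.0114). Hmgn5, a nucleosome-binding protein, differed by -0.25 ± 0.05 (adjusted p = 0.0114), Ccdc34 by -0.33 ± 0.08 (adjusted p = 0.0264), and Cldn34c1 by -0.29 ± 0.08 (adjusted p = 0.0464). The calcium-binding genes S100a1 (-0.20, adjusted p = 0.0166) and Calm2 (-0.16, adjusted p = 0.0412) were also called, Calm2 with medians of 1983 and 1812 FPKM. So were Tubb2b (a beta tubulin, -0.18), Stmn4 (a stathmin, -0.16), Chmp3 (a subunit of ESCRT-III, -0.09), Rab18 and Rab2b (small GTPases of membrane traffic, -0.18 and -0.10), Scp2 (a sterol carrier, -0.14), and Dbt and Pdhx (subunits of 2-oxoacid dehydrogenase complexes of mitochondria, -0.14 and -0.09). Further called genes of this direction, from Snapc5 at -0.23 to Rnf145 at -0.07, were Rsl1, 1110004F10Rik, Gtf3c6, Dazap2, Mphosph6, Slc30a6, Pdcl3, Arl2bp, Anp32a, Fermt2, Tmem14a, Tpd52l2 and Fam98b.

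The called genes just inside the threshold were Eif3f, Dbt and Faf2, each with an adjusted p of 0.0470. Just outside were Smad7, an inhibitory Smad (0.17, adjusted p = 0.0538), and Tmem68 and Tceb1 (both -0.17 with an adjusted p of 0.0541). Acvr1c, the type I receptor ALK7, had medians of 4.16 and 4.20 FPKM (2.09 to 6.37 and 1.30 to 5.90) and differed by -0.05 ± 0.08 (limma adjusted p = 0.892). Bdnf, a neurotrophin, had medians of 20.7 and 19.6 FPKM and differed by -0.15 ± 0.12 (adjusted p = 0.715). Neither gene was called for the harvest day.

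The cohort difference ran the same way in most groups. Of the 76 called genes 63 had 1 sign in all 7 groups and 74 in at least 6. All 17 genes higher in cohort 2 and 46 of the 59 higher in cohort 1 were among the 63. Of all genes tested, 4.22% had 1 sign in all 7 groups (1.35% higher in cohort 2 and 2.86% higher in cohort 1), but the same libraries had chosen the called genes, so their share is a description only. No gene was called for an interaction of cohort and group (limma F test, smallest adjusted p = 0.9995; 438 genes, 3.37%, at an unadjusted p under 0.05).

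The sizes varied more than the signs. Lars2 differed by 0.22 in 14-7-2, by 0.37 in 14-14-0, by 0.38 in sedentary, by 0.45 in 0-0-2, by 0.49 in 14-7-0, by 0.59 in home cage and by 0.98 in 14-0-0 mice. Snrpd1 ran from -0.07 in 14-14-0 to -0.43 in 14-0-0 mice, and Phlda1 from 0.07 in 14-7-2 to 0.73 in 14-0-0 mice. The 14-0-0 group was at the far end for all 3 genes. The median difference of the genes higher in cohort 2 was 0.38 in 14-0-0 and 0.12 to 0.24 in the other groups, and that of the genes higher in cohort 1 was -0.24 in 14-0-0 and -0.17 to -0.07 in the others. Fitted within 1 group (5 libraries against 5), the 14-0-0 group had 2409 genes (18.5%) at an unadjusted p under 0.05 against 255 to 704 in the others. The only gene called within a group was Zfp712, a zinc finger gene, in 14-0-0 (-0.61, limma adjusted p = 0.0333), which over all groups differed by -0.16 (adjusted p = 0.117). The difference in size between the groups was not tested beyond the interaction.

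**Figure D3:**
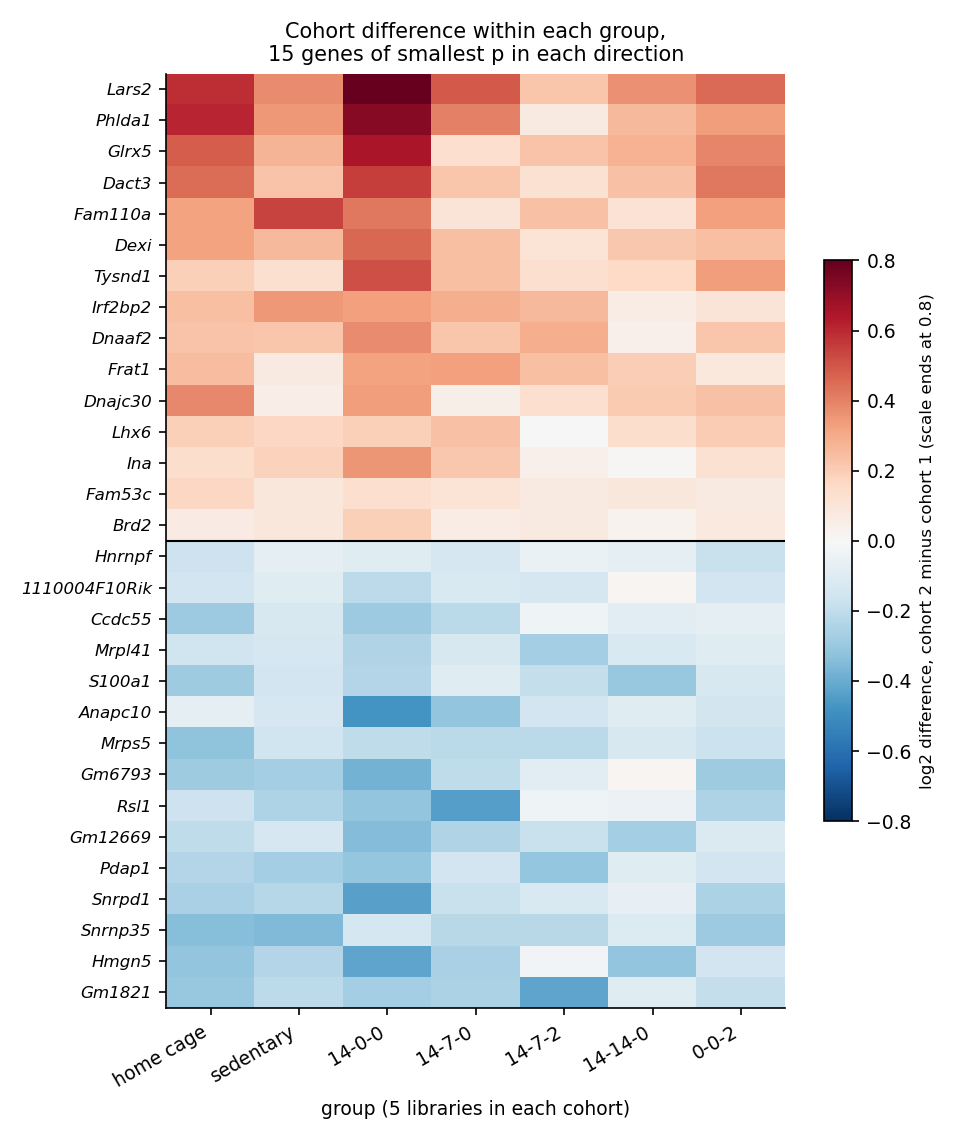
Difference between harvest cohorts (log2, cohort 2 minus cohort 1, colour scale ending at 0.8) within each of the 7 groups, 5 libraries against 5, for the 15 genes of smallest p in each direction. Nearly all cells of a gene share 1 colour, and the 14-0-0 column holds many of the deepest, including 0.98 for Lars2, which lies beyond the end of the scale.

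The median base composition of the called genes was not the same in the opposite directions. Across 12927 genes with a GENCODE transcript (99.5% of those tested), the cohort difference had a Spearman correlation of 0.477 with the GC content of the transcript, of -0.0812 with its length and of -0.104 with its number of exons. These are descriptions across genes, which share the same libraries and are not independent. The median GC content was 55.4% for genes called higher in cohort 2, 46.9% for those called higher in cohort 1 and 50.5% for all genes. From the lowest to the highest quintile of GC content the median cohort difference was -0.0598, -0.0275, -0.0111, 0.0023 and 0.0352.

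The first 90 coding bases of 4 called genes, with every G and C in capitals, are printed as extreme examples of this contrast. They are from GRCm38 with GENCODE M21 gene models, all on the + strand: Dact3 at chr7:16875425-16875514, Tysnd1 at chr10:61695571-61695660, Anapc10 at chr8:79713165-79713254 and Hnrnph2 at chrX:134604908-134604997. Dact3 and Tysnd1 were higher in cohort 2, Anapc10 and Hnrnph2 higher in cohort 1. They were picked by the GC content of their transcripts, among the highest of the first direction and the lowest of the second. Their contrast is therefore wider than that of the medians above.
Dact3: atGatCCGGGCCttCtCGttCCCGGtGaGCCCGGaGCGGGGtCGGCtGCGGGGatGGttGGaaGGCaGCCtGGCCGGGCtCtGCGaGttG
Tysnd1: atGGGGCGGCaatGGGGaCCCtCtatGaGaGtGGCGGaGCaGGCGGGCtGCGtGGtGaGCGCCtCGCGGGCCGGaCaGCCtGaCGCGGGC
Anapc10: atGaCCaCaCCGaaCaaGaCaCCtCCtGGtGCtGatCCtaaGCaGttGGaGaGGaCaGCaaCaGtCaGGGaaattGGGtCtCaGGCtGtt
Hnrnph2: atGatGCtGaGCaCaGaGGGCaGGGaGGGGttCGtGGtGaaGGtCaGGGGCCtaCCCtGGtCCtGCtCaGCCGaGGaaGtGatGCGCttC
The printed stretches hold 70%, 73.3%, 52.2% and 62.2% G or C. The whole transcripts hold 66.4%, 65.2%, 39.3% and 41.1%, so that the contrast lay mostly outside these first coding bases.

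Single-exon genes followed the same order more steeply. In the highest GC quintile the 141 single-exon genes had a median difference of 0.12 and 28.4% of them were higher in cohort 2 at an unadjusted p under 0.05, against 0.0328 and 7.79% for the 2438 genes with more exons. In the lowest quintile the medians were -0.0415 over 80 single-exon genes and -0.0600 over 2511 others. Of the called genes higher in cohort 2, 3 of 17 (Frat1, Dnajc30 and Ubqln2) had a single exon, or 17.6%, against 3.70% of all genes with a transcript.

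The relation to GC content was not the same in all groups. Within groups the Spearman correlation of the cohort difference with GC content was 0.713 in 14-0-0, 0.319 in 0-0-2, 0.252 in sedentary, 0.158 in home cage, 0.145 in 14-14-0, 0.0681 in 14-7-0 and -0.337 in 14-7-2 mice. With 1 library left out at a time, it stayed between 0.582 and 0.758 in 14-0-0 and between 0.115 and 0.598 in 0-0-2, and crossed 0 in the other 5 groups. In 14-7-2 mice it was 0.114 without replicate 9, and in sedentary mice -0.00570 without replicate 6. The difference between the groups was not tested. The slope of a library's log2 values on GC content (per 10 percentage points) averaged -0.0275 ± 0.160 in cohort 1 and 0.0275 ± 0.184 in cohort 2 (SD, n = 35 each), a difference that did not pass a permutation test within groups (p = 0.197, adjusted p = 0.329 over 5 measures). After the trend of each library with GC content was removed, 64 genes were called (23 higher and 41 lower in cohort 2), 36 of them among the 76, including Irf2bp2, Lars2, Snrpd1 and Hnrnpf. Dact3 and Tysnd1 were not among them.

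**Figure D4:**
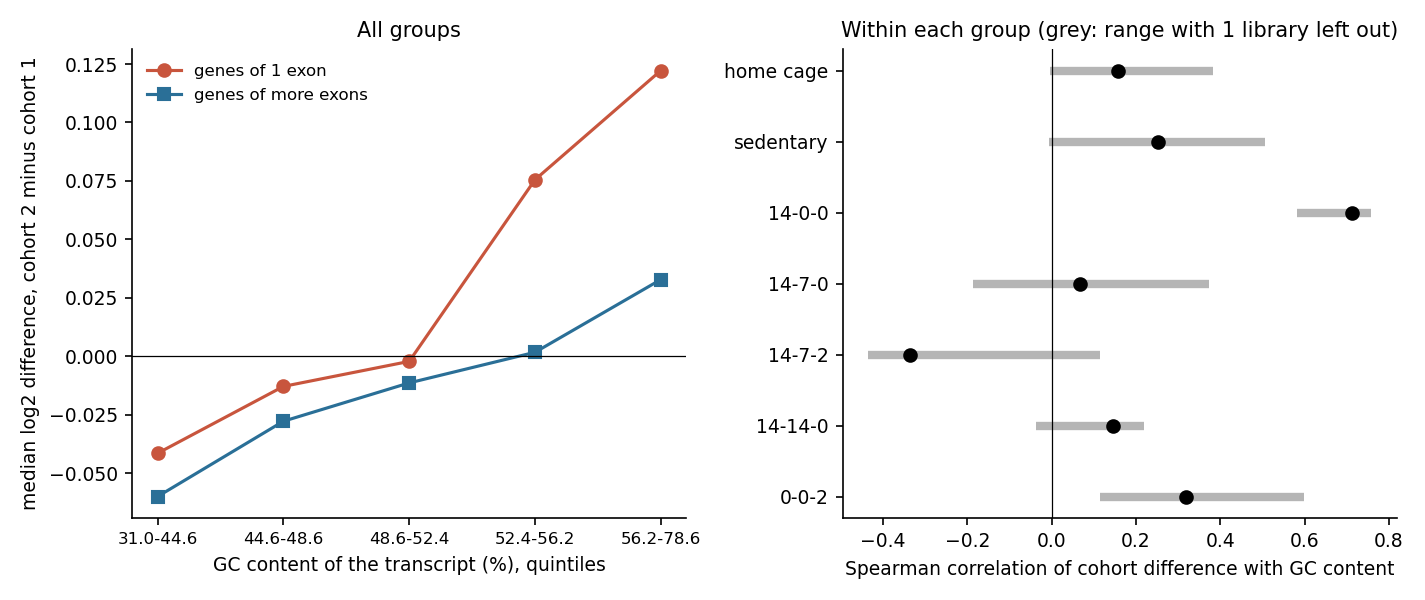
Left, median difference between harvest cohorts (log2, cohort 2 minus cohort 1) of genes in quintiles of transcript GC content, for single-exon genes and genes with more exons. Right, Spearman correlation of the cohort difference with GC content within each group (black point), with the range over fits that left out 1 library (grey bar). The medians climb with GC content to 0.12 for single-exon genes and 0.0328 for the others, and only the 14-0-0 and 0-0-2 bars stay on 1 side of 0.

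Of the 59 genes higher in cohort 1, 4 are annotated as pseudogenes. Of the 17 higher in cohort 2 there were 0, and of all 12927 genes with a transcript 59. Other called genes share sequence with a copy or with an overlapping neighbour. A read of 50 bases from a copied stretch may match several places in the genome. A read from an overlap may match a single place that belongs to both genes. The study's methods state that reads matching several locations were removed before FPKM were computed. Genes whose windows were nearly all shared nevertheless had values, such as Gm10052 with a median of 118 FPKM in cohort 1, and how their reads were counted was not tested. Windows of 50 bases that also occur in another gene's transcripts made up over 10% of the transcript in 28 of the 59 genes higher in cohort 1 (47.5%), in 5 of the 17 higher in cohort 2 (29.4%) and in 19.6% of all genes. Over 50% was shared in 10 of the 59 (16.9%), in 1 of the 17 (5.88%) and in 4.62% of all genes. The windows were compared without genome positions, so these numbers hold copies and overlapping neighbours alike. How reads of either kind were assigned to a gene is not known here, and the values of these genes are therefore uncertain.

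Gm12070, the called gene with the largest difference, had medians of 2.09 and 1.102 FPKM (-0.65 ± 0.15, limma adjusted p = 0.0269) and shared 99.6% of its windows, most of them with the glycolytic gene Gapdh. Gapdh itself had medians of 1125 and 1093 FPKM and differed by -0.07 (adjusted p = 0.564). Gm10052 (-0.24, adjusted p = 0.0277) shared 100% with Hnrnpa1 (-0.04, adjusted p = 0.860), and Gm12669 (-0.21, adjusted p = 0.0165) shared 77.3% with Glrx3 (0.31, adjusted p = 0.0711). The 3 parent genes were not called, and the value of Glrx3 lay on the other side of 0.

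Gm1821 (chr14:46084028-46085000) had medians of 352 FPKM (227 to 558) and 291 FPKM (184 to 375), or -0.25 ± 0.05 (limma adjusted p = 0.00663), and 89.2% of its windows were shared, mostly with the ubiquitin gene Ubb (chr11:62551171-62553213). Ubb had medians of 725 and 675 FPKM and differed by -0.04 ± 0.05 (adjusted p = 0.848). To show how close the copies are, 60 bases of each are given, bases 134 to 193 of the Gm1821 transcript and bases 264 to 323 of the Ubb coding sequence (GRCm38, + strand), with the 1 base that differs in capitals.
Gm1821: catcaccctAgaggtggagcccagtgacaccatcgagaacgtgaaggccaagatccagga
Ubb: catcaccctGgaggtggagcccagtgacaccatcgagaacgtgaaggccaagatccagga
A stretch of 50 bases after that base is the same in both, so a read that lies within it occurs in both.

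Shared sequence was also found for Synj2bp-cox16 (93.4%), a read-through of genes that includes Cox16, for Gm6793 (80.1%), Rab2b (74.2%), Hnrnpf (67.3%) and Apex1 (65.6%, with the neighbouring Pip4p1) among genes higher in cohort 1, and for Dnaaf2 (68.1%), Phlda1 (33.2%) and Irf2bp2 (19.7%, with the neighbouring Gm26759) among those higher in cohort 2. Restricted to 10398 genes with at most 10% shared windows, the test called 17 genes, 4 higher in cohort 2 and 13 higher in cohort 1, and all 17 were among the 76.

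No gene of the clock lists was called. None of 13 clock repressors and output factors and none of 6 activators and counter-phase factors passed even an unadjusted p under 0.05 in limma, and the list medians were -0.000500 and -0.0158. Per1, a light- and activity-responsive repressor, had medians of 12.7 and 14.4 FPKM (0.08 ± 0.08), and Per2 of 5.98 and 6.43 FPKM (0.02 ± 0.06). Dbp, a clock output factor, differed by 0.10 ± 0.06 and the activator Arntl by -0.07 ± 0.05. Under both other scalings and without the 2 doubtful libraries, the repressor median was above 0, at 0.0091 to 0.0197, and the activator median stayed below 0, at -0.0305 to -0.0018. The repressor median was -0.013 with the GC slope of each library as a covariate, and the activator median was 0.014 with the GC trend removed.

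Immediate early transcription factors, which neuronal activity induces, had a list median of 0.0999, with 16 of 19 members above 0, against 5241 of all 12994 genes, but none called by limma. At an unadjusted p under 0.05, 2 members (10.5%) were higher in cohort 2, against 3.58% of all genes, and none was lower. Fos had 1.88 to 13.4 FPKM (median 3.83) in cohort 1 and 2.22 to 16.3 FPKM (median 4.22) in cohort 2 (0.20 ± 0.13, adjusted p = 0.604). Egr4 had medians of 3.40 and 4.55 FPKM (0.49 ± 0.19, adjusted p = 0.245), with 28 of 35 cohort 2 libraries above the cohort 1 median. Arc, a synaptic effector, had medians of 29.3 and 32.4 FPKM (0.13 ± 0.14, adjusted p = 0.791). The list median was positive in 5 of 7 groups, from -0.0687 to 0.31, and stayed above 0 under both other scalings. It was 0.0866 with the GC trend removed and 0.0411 with the GC slope of each library as a covariate. The median GC content of these genes was 56.0%, against 50.5% for all genes. Of 27 effector and late activity-induced genes none was called and 1 (Dusp1, 3.70%) was higher in cohort 2 unadjusted, with a list median of 0.0120.

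Stress genes were mixed. Of 23 cytosolic heat shock chaperones none was called, 5 were higher and 4 lower in cohort 2 at an unadjusted p under 0.05 in limma (21.7% and 17.4%, against 3.58% and 8.29% of all genes), and the median was -0.0105. Those above 0 included the inducible Hspa1a (0.28 ± 0.12, adjusted p = 0.310), Hspa1b (0.33 ± 0.14, adjusted p = 0.304) and Hspb1 (0.35 ± 0.13, adjusted p = 0.2003), and those below 0 included Hsp90aa1 (469 and 435 FPKM, -0.10 ± 0.04, adjusted p = 0.241). The GC content of the first 3 is 59.0%, 58.1% and 60.7%, and that of Hsp90aa1 is 43.7%. No glucocorticoid-responsive gene of 19 was called (Fkbp5 at -0.01 ± 0.04 and Sgk1 at 0.00 ± 0.08), with 1 in each direction unadjusted (5.26% each). Nor was any of 16 hypoxia-responsive, 22 endoplasmic reticulum, 4 cold-inducible, 25 cholesterol or 19 interferon and antigen presentation genes called. At an unadjusted p under 0.05, 1 hypoxia-responsive gene (6.25%) and 1 endoplasmic reticulum gene (4.55%) were higher in cohort 2, and 1 cold-inducible gene (25%) was lower. Cholesterol genes had 1 higher (4%) and 2 lower (8%). Interferon and antigen presentation genes had 1 higher (5.26%) and 2 lower (10.5%).

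Among markers of cell types, 1 gene was called, the interneuron factor Lhx6. The 21 markers of inhibitory neurons had a median of 0.0203 (-0.0334 without the 2 doubtful libraries), and Sst (0.08 ± 0.11) and Gad1 (-0.02 ± 0.05) were not called. Microglia had 7 of 20 markers lower and none higher in cohort 2 at an unadjusted p under 0.05, against 8.29% and 3.58% of all genes. The list median was -0.0646 and stayed between -0.0907 and -0.0548 under the other scalings, a correction for GC content and without the 2 doubtful libraries. Ctss, a lysosomal protease, came nearest to the threshold, with medians of 57.6 FPKM (50.9 to 76.1) and 52.3 FPKM (39.8 to 71.4), or -0.15 ± 0.04 (limma adjusted p = 0.0571). Fcrls (-0.12 ± 0.03, adjusted p = 0.0608) and the fractalkine receptor Cx3cr1 (-0.10 ± 0.03, adjusted p = 0.0698) followed, and all 3 were lower in cohort 2 in all 7 groups. Not every marker moved: 4 of the 20 were above 0, at most 0.0159 (Trem2). C1qa, Csf1r and Tmem119 lay at -0.01, -0.01 and -0.03. The summed FPKM of the 20 microglial genes had a median of 437 (379 to 562) in cohort 1 and 428 (322 to 509) in cohort 2.

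The content of neighbouring tissue varied far more between libraries than between days. All 20 choroid plexus markers had a positive difference (median 0.18), but none passed even an unadjusted p under 0.05 in limma. Ttr, the transthyretin made by choroid plexus, ran from 15.5 to 21244 FPKM in cohort 1 and from 15.8 to 15643 FPKM in cohort 2, with medians of 107 and 101 FPKM (0.13 ± 0.65, adjusted p = 0.972). Within groups the list median ran from -1.73 to 1.55, and the summed FPKM of the 20 markers ran from 62.5 to 25350 in cohort 1 and from 92.6 to 18776 in cohort 2. The 5 blood genes measured were all below 0 (median -0.70), with Hbb-bs, a beta globin, at 12.02 and 4.804 FPKM (-1.64 ± 0.74, adjusted p = 0.348). No marker of dentate gyrus granule cells (15), pyramidal cells (16), mature myelin (18), oligodendrocyte precursors (12), astrocytes (17), endothelium (23), meninges (16), thalamus (11), striatum (8), neocortex (10) or dividing cells (10) was called. At an unadjusted p under 0.05, astrocytes had 1 gene higher and 3 lower in cohort 2, endothelium 3 lower, neocortex 1 higher, and the other 8 lists none.

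Among 80 cytosolic ribosomal protein genes, 2 were called lower in cohort 2, Rpl23 (median 200 FPKM in cohort 1 and 176 FPKM in cohort 2, -0.16 ± 0.04, limma adjusted p = 0.0347) and Rpl21 (192 and 175 FPKM, -0.12 ± 0.03, adjusted p = 0.0470). At an unadjusted p under 0.05, 21 were lower and 2 higher, or 26.3% and 2.50% against 8.29% and 3.58% of all genes, and the median was -0.0557. It lay between -0.0739 and -0.0458 under the other scalings, a correction for GC content and without the 2 doubtful libraries. Rpl17 (-0.15, adjusted p = 0.0576) and Rps3 (-0.14, adjusted p = 0.0608) came next. Ribosomal protein genes have many processed copies, and Rpl23 and Rpl21 shared 34.8% and 26.2% of their windows with other genes, so their values are uncertain. The 74 mitochondrial ribosomal genes had a median of 0.0042 with 7 higher and 7 lower unadjusted (9.46% each), and Mrps5 and Mrpl41 were the only called members.

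Respiratory chain genes lay on both sides of 0 and none was called. Of 37 genes of complex I, 5 were higher and 4 lower in cohort 2 at an unadjusted p under 0.05 in limma (13.5% and 10.8%, against 3.58% and 8.29% of all genes), with a median of -0.0065 (0.0034 after scaling by median ratios). Ndufb6 had medians of 127 FPKM (59.9 to 211) and 154 FPKM (104 to 230), or 0.33 ± 0.09 (adjusted p = 0.0593), while Ndufs5 had medians of 155 FPKM (36.1 to 296) and 117 FPKM (9.27 to 187), or -0.67 ± 0.22 (adjusted p = 0.140). Both are accessory subunits of the same complex. Of 36 genes of complexes III, IV and V, 3 were higher (8.33%) and 5 lower (13.9%), with a median of -0.0113. Of 34 proteasome subunits 4 were lower (11.8%) and none higher (median -0.0253), with Psmb2 nearest to the threshold (-0.11, adjusted p = 0.0565).

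Splicing factors of the SR family and their kinases had 7 of 24 genes lower and 2 higher in cohort 2 at an unadjusted p under 0.05 (29.2% and 8.33%, against 8.29% and 3.58% of all genes), with a median of -0.0668 and none called by limma. Tra2b (-0.10 ± 0.03, adjusted p = 0.103) and Luc7l3 (-0.22 ± 0.09, adjusted p = 0.292) were below 0, and Srsf9 (0.14 ± 0.05, adjusted p = 0.131) and Srsf4 (0.15 ± 0.05, adjusted p = 0.155) above. The transcripts of Tra2b and Luc7l3 hold 41.8% and 41.2% G or C, those of Srsf9 and Srsf4 56.2% and 56.9%, and the list median was -0.0274 once the trend with GC content was removed. Of 289 zinc finger genes named Zfp, Zfp868 was called (-0.14 ± 0.03, adjusted p = 0.0269), 48 were lower and 9 higher unadjusted (16.6% and 3.11%, against 8.29% and 3.58% of all genes), and the median was -0.0338. Their median GC content was 46.1%, and the median was -0.0025 with that trend removed. All 8 nuclear-retained long RNAs measured were below 0 (median -0.11), with none at an unadjusted p under 0.05 in limma. None of 10 AMPA and NMDA receptor subunits passed unadjusted either (median -0.0319). Of 18 receptors and Smads of the activin, TGF-beta and BMP pathways 1 was higher (Smad7, 5.56%) and 3 lower (Bmpr1a, Bmpr1b and Tgfbr1, 16.7%) unadjusted.

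**Figure D5:**
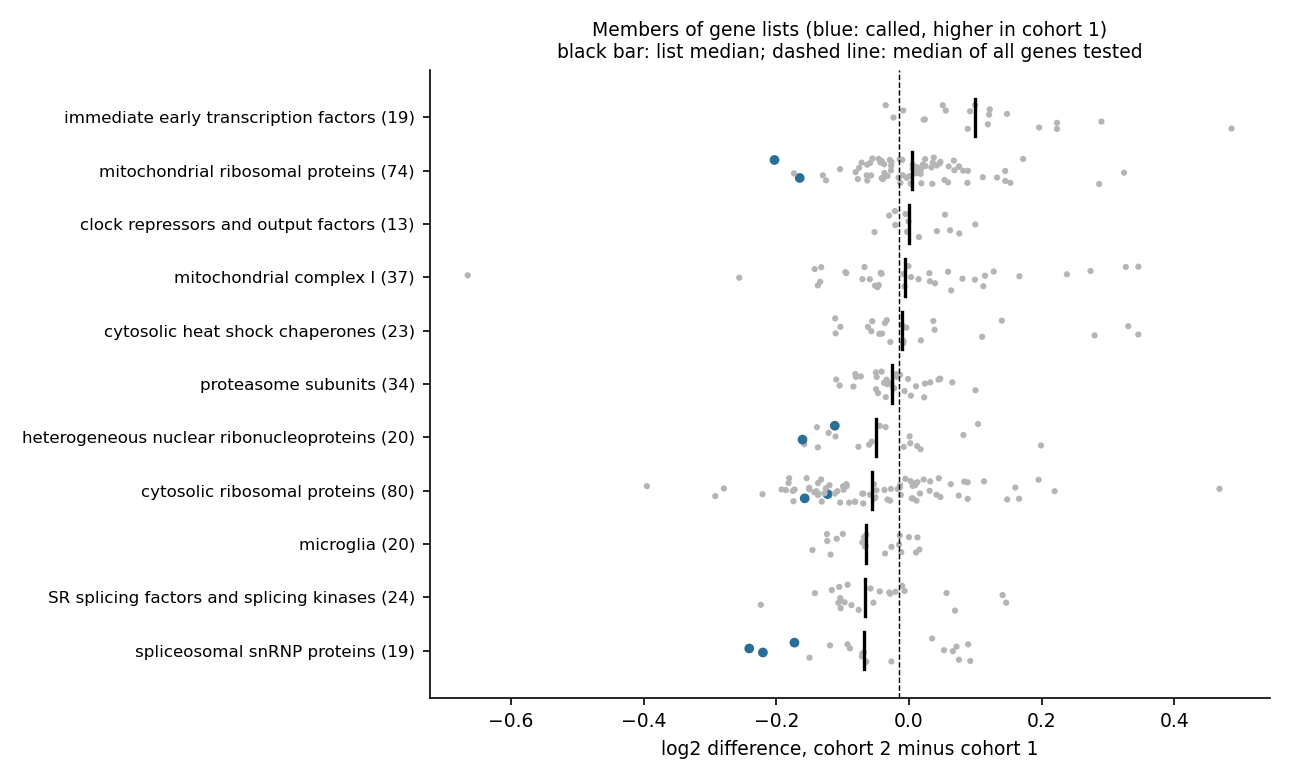
Difference between harvest cohorts (log2, cohort 2 minus cohort 1) of each member of selected gene lists, 1 line per list with the number of genes tested in brackets. Blue points are genes called higher in cohort 1, a black bar marks the median of the list, and the dashed line marks the median of all genes, -0.0151. Members of most lists lie on both sides of the dashed line, and every blue point lies below the median of its list.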

How the data were processed

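RNA-seq values of 70 dorsal hippocampus libraries were used as the authors deposited them, as FPKM per gene symbol. Per the methods of the study and the submitters' processing notes, mRNA was selected with poly-T beads, single reads of 50 bases were aligned with Bowtie (mm10; a second aligner is also named), reads with several locations were removed, and Cuffnorm made the FPKM. The versions of Bowtie and Cuffnorm and the annotation are not given in the sources used here. The table holds no read counts. The paper's supplement lists total reads for its sequencing samples, but under names that match no sample title. The absolute depth of each library is therefore unknown here. Depth relative to sedentary replicate 0 was taken from 4696 low genes (mean below 0.1 FPKM), as the most frequent log2 ratio between the libraries. No column of per-sample values was left unused.

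Group and harvest cohort came from the sample labels. The table lists 24346 genes. A minimum mean of 1 FPKM kept 12994 for testing and dropped 11352. log2(FPKM + 0.1) was fitted with cohort and group in limma 3.58.1 under R 4.3.3 (moderated test with trend, two-sided, Benjamini-Hochberg over all genes tested). A gene was called at an adjusted p under 0.05. Replicates are single mice by the labels. Library measures were compared by 100000 permutations within groups. On simulated data of 12994 genes for this comparison, 2, 26, 43 and 48 of 50 genes were recovered at log2 sizes of 0.1, 0.2, 0.4 and 0.8, with 9 false calls. The simulated noise was independent between genes and libraries, without a part shared by replicate number or a GC trend. These counts therefore do not show how reliable the calls are in the real libraries, where such shared parts may be present.

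GC content, exon number and coordinates came from GENCODE M21 (GRCm38), matched by symbol (99.5% of genes), from the transcript with the longest coding sequence. Windows of 50 bases were compared between all GENCODE transcripts on either strand. Python 3.11.15 and matplotlib 3.10.9 were used for the figures. Genes named are the 15 of smallest p in each direction, the 10 called genes of largest difference in each direction with 1 sign in all 7 groups, list members, Acvr1c, Bdnf and the 3 genes on each side of the threshold. Other called genes, Frat2, Gapdh, Ubb, Hnrnpa1, Glrx3 and the snRNP and hnRNP lists were chosen after their values were seen. The members and all lists were chosen with earlier results of these data known. Alternatives were another pseudocount, 3 other filters, 2 scalings, no group covariate, a replicate block, 3 covariates, Cyber-T, array weights, 2 other thresholds and leaving out libraries or groups. Fits for GC content and shared windows were added after seeing the data. No mitochondrially encoded gene is listed in the table, and that list has no values. Among the genes called higher in cohort 1, 1 is counted in the totals but its own values are not reported here.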

Additional observations from a re-analysis of the deposited data

Results flagged for a closer look

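In each group of 10 libraries, 5 measures (the sum of FPKM, the number of genes listed at 0, the relative depth and the slopes of log2 values on GC content and on transcript length) were searched for a library far from the others. Of 35 such sets, 5 had an end value whose gap to its neighbour exceeded 0.466 of the whole range, and chance alone gives about 1 in 20. The sum of FPKM was 469206 in sedentary replicate 4, against 431418 in the next library of its group. In 14-7-0 replicate 4, 10279 genes were listed at 0, against 7080 in the next. The GC slope of 14-7-2 replicate 9 was -0.5704 per 10 percentage points, against -0.1454 in the next. The slope on length was -0.1015 in home cage replicate 5, against -0.02621, and -0.1643 in 14-0-0 replicate 5, against -0.0307. Of these libraries, sedentary replicate 4 and 14-7-0 replicate 4 belong to cohort 1 and the others to cohort 2. Left out 1 at a time, they gave 190 called genes (sedentary replicate 4), 154 (14-7-0 replicate 4), 99 (14-7-2 replicate 9), 80 (home cage replicate 5) and 50 (14-0-0 replicate 5) by limma at an adjusted p under 0.05, where 76 were called with all libraries.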

How the results depend on the processing

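The number of called genes depended on the settings far more than the signs did: all 76 genes, or those of them that were tested, kept their sign in every alternative. The genes were chosen in these same libraries, and some alternatives change only the threshold or the error. Kept signs are therefore a description only. The count was 79 (18 higher and 61 lower in cohort 2) with a pseudocount of 1, 66 (16 and 50) with a minimum of 0.1 FPKM, 113 (27 and 86) with 5 FPKM, which removes genes from the test, and 47 (10 and 37) with no filter. It was 35 (14 and 21) after scaling by median ratios, 69 (29 and 40) after quantile normalization, 50 (14 and 36) without the group covariate, 138 (39 and 99) with a choroid plexus score, 139 (28 and 111) with relative depth and 96 (23 and 73) with a myelin score as a covariate. Cyber-T without covariates called 17 (6 and 11), array weights (0.0907 to 4.32 per library) 2244 (1052 and 1192), an unadjusted p under 0.05 called 1542 (465 and 1077), and an adjusted p under 0.01 called 6 (3 and 3). Without the home cage group 1 gene was called (1 and 0), with 1318 at an unadjusted p under 0.05. Without sedentary there were 48 (13 and 35), without 14-0-0 2 (1 and 1), without 14-7-0 44 (7 and 37), without 14-7-2 66 (17 and 49), without 14-14-0 52 (10 and 42) and without 0-0-2 34 (9 and 25). Leaving out both sedentary replicate 6 and 14-7-0 replicate 4 gave 165 (51 and 114). Of alternatives chosen after seeing the data, the GC slope of each library as a covariate gave 394 (54 and 340), removing the GC trend 64 (23 and 41), and at most 10% shared windows 17 (4 and 13) of 10398 genes. Where neither fewer genes nor fewer libraries entered, the cause was not tested. Acvr1c, not called, changed sign to 0.0087 with array weights and to 0.0229 with the GC trend removed.

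Leaving out 1 library at a time gave 33 (without 14-0-0 replicate 3) to 190 (without sedentary replicate 4) called genes, 4 to 51 higher and 29 to 139 lower in cohort 2. The count changed by over 1.5 times in 34 of 70 such fits. It rose to 115 or more without sedentary replicate 4 or 6 (190 and 115), 14-7-0 replicate 2 or 4 (128 and 154), 14-14-0 replicate 2 (122), and 0-0-2 replicate 1 or 6 (124 and 116). It fell to 33 to 50 without home cage replicates 1, 3 or 8, sedentary replicates 1, 2, 3, 5 or 8, 14-0-0 replicates 1 or 3 to 9, 14-7-0 replicates 1, 3, 6 or 7, 14-7-2 replicates 1, 2 or 6, 14-14-0 replicates 0 or 8, or 0-0-2 replicates 2 or 3. All 76 genes kept their sign in each, and 33 were called in all 70, among them Irf2bp2, Dact3, Lars2, Frat1, Snrpd1, Mrpl41, Mrps5, Hnrnpf and Pdap1.

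With the replicate number as a block (consensus correlation 0.129), limma called 0 genes (0 higher and 0 lower), with 563 at an unadjusted p under 0.05. The numbers are nested in the cohorts, and no label says what they share. Deviations of same-numbered libraries from their group and cohort means had a mean correlation of 0.0905 over 210 pairs (92 over 0.1). Over 840 pairs of other numbers in the same cohort it was -0.0209 (204 over 0.1). These deviations sum to 0 over the 5 libraries of a group and cohort. A positive mean for the same number therefore forces a slightly negative mean for other numbers, so -0.0209 is no independent reference. Of 70 libraries, 30 correlated best with their own number. That count is more than an equal share among the 5 numbers of a cohort, and the excess was not tested. The numbers were not taken as pairs, since no label ties them to a shared source. The positive mean correlation and the count of best matches point to something shared by libraries of the same number. What they share was not tested.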
